A study of Drosophila melanogaster with 2 samples.

Results

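Of the 3707 regions in the thresholded set for Crg-1-GFP in whole adult flies, 536 (14.5%, 95% Wilson interval 13.4 to 15.6%) lay in introns near a transcription start site. The rule took regions whose summit was inside a gene but in no exon, more than 500 bp and at most 3000 bp from the nearest annotated start of any gene. It used positions alone, not signal. The other classes were 2628 regions with the summit within 500 bp of a start, here called promoter regions, the 260 intronic regions more than 3000 bp from a start (deep intronic regions), and those in exons or between genes. The label was met by construction, since each summit was placed against the Ensembl annotation of the dm6 genome.

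The data came from chromatin immunoprecipitation followed by sequencing, with an antibody against GFP, on chromatin sonicated to 200 to 800 bp. The flies were adults of both sexes pooled, of unknown age, from a transgenic line that stably expresses Crg-1 with GFP at its C terminus. There was 1 group with 2 biological replicates, numbered 2 and 3, which shared a donor label and 1 control alignment. The labels do not say which promoter drives the transgene. Whole flies mix all tissues, so few cells with strong binding and many cells with weak binding cannot be told apart. The number of reads is unknown, and the authors' signal was used to rank regions within a list.

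Crg-1 belongs to the forkhead family, whose members bind DNA through a winged-helix domain and prefer sites with the core TGTTTA or variants of it. The gene was first described as one whose transcript cycles with the circadian clock. In the compact fly genome, the first introns of long genes often hold enhancers, and many genes have alternative start sites inside what is an intron of their longer transcripts.

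The sequences of the strongest regions are shown first because none of them held either of the forkhead heptamers, TGTTTAC and TATTTAC, in the 50 bases to each side of the summit, read on either strand. All sequences are these summit windows from the RefSeq Release 6 (dm6) plus strand. They lay in introns of CG11050 (chr2L:6612669-6612769), CG32772 (chrX:4910340-4910440), Tlk (chrX:3742181-3742281), which encodes the Tousled-like kinase of chromatin assembly, and ush (chr2L:480987-481087), which encodes a cofactor of GATA factors. The shorter core TGTTTA is not marked, and the window of CG32772 held it on the minus strand, as TAAACA.
CG11050: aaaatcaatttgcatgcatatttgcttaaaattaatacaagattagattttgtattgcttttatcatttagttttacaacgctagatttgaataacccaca
CG32772: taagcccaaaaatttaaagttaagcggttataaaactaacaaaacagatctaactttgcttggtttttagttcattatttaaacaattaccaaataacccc
Tlk: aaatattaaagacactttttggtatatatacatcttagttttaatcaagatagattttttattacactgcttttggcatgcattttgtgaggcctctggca
ush: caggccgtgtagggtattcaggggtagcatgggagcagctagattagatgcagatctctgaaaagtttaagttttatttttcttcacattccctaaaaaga

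The next set is shown because these regions, also among the strongest, did hold a heptamer. Capitals mark TGTTTAC or TATTTAC, or their reverse complements GTAAACA and GTAAATA. They lay in introns of Lk6 (chr3R:11761004-11761104), InR (chr3R:21590797-21590897), Trl (chr3L:14759433-14759533), SCaMC (chr3L:12407064-12407164), CG9663 (chr2L:3302122-3302222) and CHES-1-like (chrX:7698362-7698462). In CHES-1-like the middle of the word fell on the summit itself, in Trl 3 bp from it and in Lk6 45 bp from it. The window of InR held 2 copies of TATTTAC, 1 on each strand, at 12 and 8 bp from the summit. SCaMC held both words on the minus strand, at 9 and 26 bp. The region in Gdh, not shown, held TATTTAC 28 bp from its summit and had a thresholded signal of 565.6. That is above the 461.1 of the CHES-1-like region shown. The strongest region of CHES-1-like, with 526.5, held neither heptamer.
Lk6: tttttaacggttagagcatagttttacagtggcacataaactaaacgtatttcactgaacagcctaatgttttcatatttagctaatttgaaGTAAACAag
InR: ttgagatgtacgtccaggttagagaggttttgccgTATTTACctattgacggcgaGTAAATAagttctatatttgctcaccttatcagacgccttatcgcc
Trl: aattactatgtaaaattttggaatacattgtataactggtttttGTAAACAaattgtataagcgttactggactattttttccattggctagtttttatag
SCaMC: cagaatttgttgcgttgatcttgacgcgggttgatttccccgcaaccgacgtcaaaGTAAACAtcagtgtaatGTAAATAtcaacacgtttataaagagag
CG9663: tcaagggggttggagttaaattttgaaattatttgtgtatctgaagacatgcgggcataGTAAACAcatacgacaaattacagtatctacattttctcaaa
CHES-1-like: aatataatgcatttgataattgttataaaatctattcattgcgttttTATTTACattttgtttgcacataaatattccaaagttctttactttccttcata

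The signal of the 536 regions had a median of 149.3 (quartiles 125.6 and 204.2, highest 1518.2), against 169.0 for promoter regions and 152.6 for deep intronic regions. Each of the 536 overlapped a region in the full list of both replicates. A stricter check asked for overlap with 1 of the 3707 regions of highest signal in each replicate, called top-ranked. By that check 375 of the 536 (70.0%, interval 65.9 to 73.7%) were top-ranked in both replicates, beside 75.9% over the whole thresholded set. The share was 78.6% for promoter regions, and the difference, near-start intronic minus promoter, was -8.65 points (Newcombe interval -12.9 to -4.59). It was 71.2% for deep intronic regions, and that difference of -1.19 points had an interval of -7.73 to 5.69. The near-start intronic regions also had lower signal than promoter regions, and the part of signal in the difference was not tested. The thresholded set was derived from the same replicates, so these shares describe how the lists resemble each other and are no outside check.

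Within the 536 regions, 459 were top-ranked in replicate 2, 442 in replicate 3 and 10 in neither. The signal in the 2 lists had a Spearman correlation of 0.631 over the 536 regions, as a description. The points share a control, and in each list 46 of them matched a replicate region that another of them also matched. The summits of the matched regions in the replicate 2 and replicate 3 lists lay a median of 25 bp apart. The scales of the 2 lists differed, with medians of 94.7 in replicate 2 and 62.8 in replicate 3, so values are given per replicate and not averaged. Where a pair of values stands without replicate numbers, the first is from replicate 2 and the other from replicate 3.

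**Figure D1:**
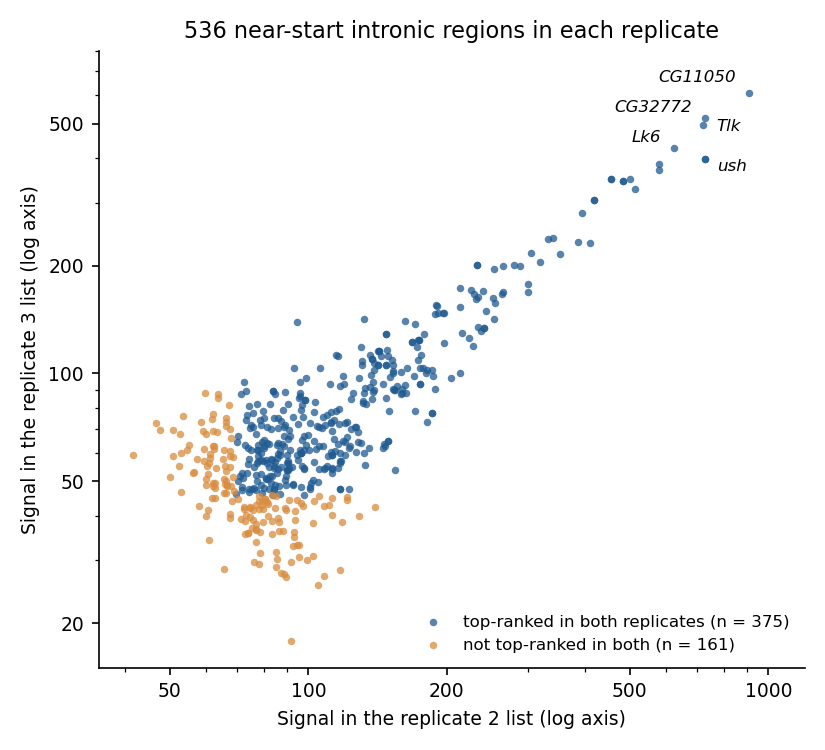
Signal of the 536 near-start intronic regions in the replicate 2 list (x axis) and the replicate 3 list (y axis), both on log axes in the authors' units, 1 point per region. The strongest regions, with CG11050 at the top right, lie in 1 narrow line. The 161 regions that were not top-ranked in both replicates lie at low signal in at least 1 of the lists.

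The strongest region lay in CG11050. It had a signal of 906.2 in replicate 2 and 610.4 in replicate 3, and ranked 2 of 30000 in both lists. CG32772 had 727.1 and 519.1, and Tlk 722.5 and 496.9. The region in ush had 728.3 and 399.5, and its nearest start, 1349 bp away, was not that of ush but of cbt, which encodes the zinc-finger factor Cabut that responds to sugar. Cabut has been linked to the clock as well as to feeding.

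Lk6, a kinase that phosphorylates the cap-binding factor eIF4E, had 623.0 in replicate 2 and 427.0 in replicate 3. The region in norpA, the phospholipase C of phototransduction, had 578.6 and 385.6. The overlapping introns of HmgD and HmgZ, which encode high mobility group proteins of chromatin, held a region with 577.3 and 371.1. InR, the insulin receptor, had 501.5 and 349.7. The region in Trl, the GAGA factor, had 512.7 and 328.2. All of these stood far above the medians of both lists.

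The 25 strongest regions that were top-ranked in both replicates ran down to LPCAT, which encodes an acyltransferase of phospholipids, with a signal of 465.9 in the thresholded list. None of them ranked below 187 in replicate 2 or below 227 in replicate 3. Besides those above, their hosts included SCaMC, a mitochondrial carrier, Adf1, a transcription factor, upSET, a SET-domain protein of chromatin, for, the cGMP-dependent kinase Foraging, and Gdh, glutamate dehydrogenase. The remaining hosts were CG9663, with 2 regions that matched the same region in each replicate, CG12769, CG3726, aru, EcR, CHES-1-like, cno, which encodes a protein of cell junctions, CG4496 and NFAT. Of the 25, 21 lay in a first intron, 22 had a start of their host as the nearest start, and 15 had a host that also carried a promoter region.

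The near-start intronic regions thinned out with distance. In successive steps of 500 bp, starting at 500 bp from the start, there were 50.8, 31.8, 26.1, 21.5 and 18.4 per megabase of eligible intron. Deep introns had 7.21 thresholded regions per megabase. Candidate regions in the pooled list, which holds 30000 regions down to low signal, also thinned out, with 439 per megabase in the nearest bin, 282 in the farthest and 150 in deep introns. The share of candidates that the thresholded set held was 11.6% in the nearest bin, 6.51% in the farthest and 4.80% in deep introns. Over all 6086 candidates in near-start introns it was 8.81%, beside 12.4% of the whole pooled list and 23.5% of its candidates at promoters. The thresholded set matched the 3707 strongest regions of the pooled list, so the share held is itself a cut on candidate signal. Among the regions past that cut, signal and replicate overlap did not follow the same order. The median signal was 150.4 in the nearest bin and 143.7 in the farthest, and the shares top-ranked in both replicates were 69.2% (interval 62.9 to 74.9%) and 67.4% (52.97 to 79.13%).

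**Figure D2:**
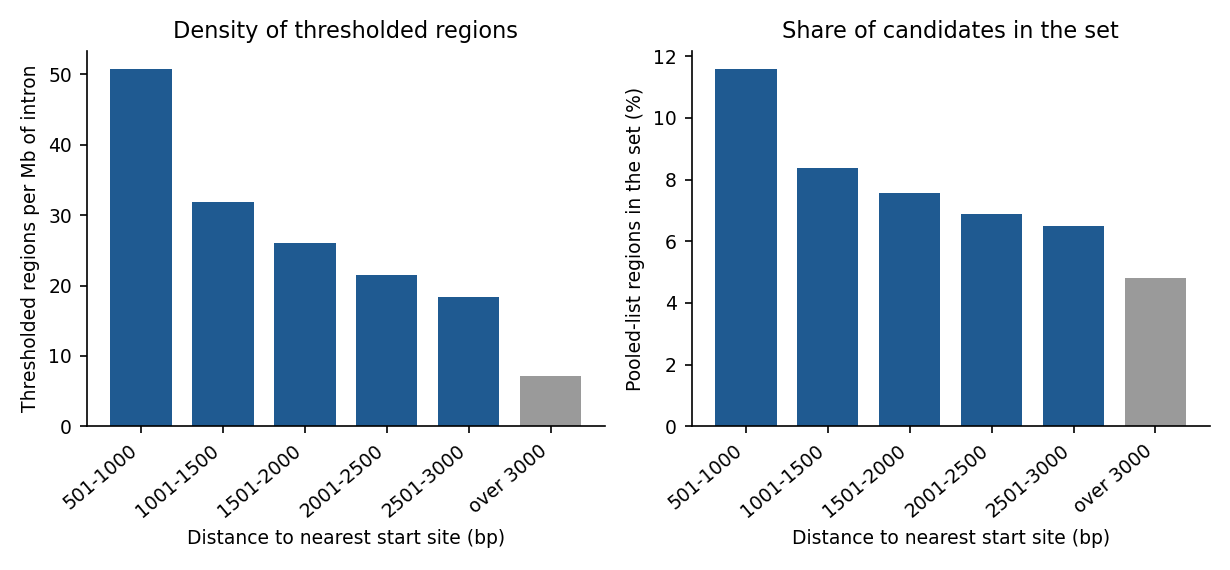
Thresholded regions per megabase of intron (left) and percent of pooled-list candidates held by the thresholded set (right), by distance of the summit from the nearest start in bp. Blue bars are the near-start intronic regions and the grey bar the deep intronic regions, and both measures are lower in each farther bin.

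At the near limit, the regions just inside were in CG9135 at 506 bp with a signal of 138.4, pum at 511 bp with 142.2 and bun at 513 bp with 174.9. Just outside it were regions in Bruce at 497 bp with 124.5, in flfl and omd at 498 bp with 136.3 and in lola at 499 bp with 256.1. At the far limit, SNF4Agamma at 2994 bp had 123.1, Prestin at 2996 bp had 130.0 and atos at 2998 bp had 241.3. Just beyond it, trx at 3004 bp had 198.3, sbb at 3024 bp had 268.7 and CG1677 at 3052 bp had 249.6.

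First introns held most of the near-start intronic regions, at 446 of 536 (83.2%, interval 79.8 to 86.1%). Of the 16.77 Mb of intron at this distance, 61.3% of bases lay in a first intron of some transcript. Of the 5373 other pooled-list candidates in near-start introns, 72.7% lay in one, which was 10.5 points less (interval 6.94 to 13.7). The 536 also lay nearer to starts than these candidates, as the bins above show, and its part in the difference was not tested. The nearest start was one of the host gene's own starts for 460 regions (85.8%), against 80.0% of the other candidates (difference 5.81 points, 2.43 to 8.72). Of these 460, 335 lay downstream of that start and 125 upstream of it, so that the upstream ones sat before an internal start of their host. For the other 76, the nearest start was that of a protein-coding gene in 41 cases and of a noncoding gene in 35.

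The introns that held these regions had a median length of 4641 bp (quartiles 2033 and 10254 bp). Of the 536 regions, 6 overlapped a promoter region and 116 lay within 1 kb of one, measured between region edges. The median gap to the next thresholded summit was 2104 bp. Merging regions that overlap left 513 separate sites with at least 1 of them. The X chromosome had 38.7 per megabase of eligible intron (126 regions), arm 2R 33.0, arm 3R 31.0, arm 2L 30.6 and arm 3L 27.9, and chromosome 4 held only 3 regions.

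The 536 regions had 437 protein-coding host genes, which was 4.81% of the 9085 protein-coding genes with an intronic base at this distance. Among the 3028 genes in the upper tercile of such bases, ranked by their number, the share was 12.6%. The hosts were long genes, with a median of 13742 bp, against 3368 bp for eligible genes that were not hosts, and they had a median of 2 distinct starts, against 1. A promoter region was present at 258 of the 437 hosts (59.0%, interval 54.4 to 63.6%), against 25.1% of the other 8648 eligible genes, a difference of 33.9 points (29.2 to 38.5). Over all protein-coding genes the share was 22.9%. Within the upper tercile of eligible bases, 61.7% of 381 hosts had a promoter region, against 21.5% of 2647 other genes. The gap was smaller in the middle tercile, with overlapping intervals. There, 41.1% of 56 hosts (29.2 to 54.1%) had one, against 29.5% of 2971 other genes (27.9 to 31.2%). Regions of 1 gene are neighbours and are not independent.

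Most hosts, 346 of 437, had 1 such region and 91 had more. The highest number was in CHES-1-like, itself a forkhead gene, with 6 regions spread over 14129 bp. Their signals in replicate 2 were 318.9, 253.0, 233.7, 123.6, 104.6 and 62.1, and in replicate 3, in the same order, 205.6, 196.3, 164.1, 70.1, 71.2 and 49.3. The first 5 were top-ranked in both replicates and the weakest was not. The gene shn, which encodes a zinc-finger protein of the Dpp signalling pathway, had 5 regions at 4 separate sites, all top-ranked in both replicates.

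Tlk had 4 regions, all top-ranked in both replicates, and the 3 weaker ones had signals of 252.1, 102.8 and 88.5 in replicate 2 and 162.6, 64.5 and 62.8 in replicate 3. Argk1, arginine kinase, SNF4Agamma, the gamma subunit of the energy sensor AMPK, and CG12535 had 4 each, of which 3, 2 and 1 were top-ranked in both. Another 20 genes had 3 each. They included Mnt, the antagonist of Myc, Tis11, which promotes decay of messenger RNA, Tab2, an adaptor of immune signalling, par-1, a polarity kinase, chic, the fly profilin, spin, a transporter of lysosomes, and KCNQ, a potassium channel. The others were Acsl, CG12769, CG3764, CG43658, CG5953, EcR, HmgZ, InR, Lk6, NFAT, Trl, ush and vri. In EcR, Lk6, Mnt, NFAT, Tab2, chic and ush some regions overlapped, so that their 3 regions lay at 2 separate sites.

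Hosts were counted in 16 gene lists, with 561 entries matched by symbol and 16 by synonym, where a gene can stand in more than 1 list. Because a gene can be a host only where it has intron at the right distance, each share is set beside the 4.81% and 12.6% above. Among insulin and TOR genes, which couple nutrients to growth, 6 of 29 eligible genes were hosts (20.7%, interval 9.85 to 38.4%), and all 6 were among the 15 genes of the upper tercile. InR had 2 further regions, with signals of 86.3 and 77.4 in replicate 2 and 48.5 and 56.3 in replicate 3. Lk6 had 2 further regions, with 131.0 and 76.3 in replicate 2 and 105.3 and 47.9 in replicate 3. Mnt reached 137.5 in replicate 2 and 109.8 in replicate 3. REPTOR, a transcription factor held back by TOR, had 52.7 and 67.7, which is above the replicate 3 median of the 536. Atg1, the kinase that starts autophagy, had 71.7 and 47.1, and sima, the fly HIF alpha subunit, 59.9 and 48.6.

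Of the clock genes, 6 of 35 eligible genes were hosts (17.1%, interval 8.10 to 32.7%), and they were 23.1% of the 26 in the upper tercile. Both genes of the loop that sets Clk levels were among them. The repressor gene vri had 3 regions, with 84.8, 66.6 and 74.7 in replicate 2 and 48.8, 48.3 and 42.4 in replicate 3, and 1 of the 3 was top-ranked in both. The activator gene Pdp1 had 2, with 73.0 and 82.9 in replicate 2 and 89.1 and 69.7 in replicate 3. Pka-R2, a regulatory subunit of protein kinase A, had 126.0 in replicate 2, the highest of these clock genes there, and 70.6 in replicate 3, where the stronger region of Pdp1 was above it. The gene cwo, a repressor of clock targets, had 63.2 and 68.7. The phosphatase 2A subunit genes tws and wdb had 80.0 and 47.8, and 81.4 and 43.8. In replicate 2 all of these except Pka-R2 were below the median of the 536, and in replicate 3 Pka-R2, cwo and both regions of Pdp1 were above it. Crg-1 itself hosted none.

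Of the forkhead family, 2 of 11 eligible genes were hosts, CHES-1-like and jumu, and jumu had 98.7 in replicate 2 and 97.0 in replicate 3. The largest share in the upper tercile was that of fat body and lipid genes, with 8 of 19 (42.1%, interval 23.1 to 63.7%), and 8 of 28 eligible genes in all (28.6%). All 8 hosts also carried a promoter region. Lsd-2, a perilipin of lipid droplets, had 185.3 and 102.4. FASN1, fatty acid synthase, had 95.8 and 69.6 in replicate 2 and 86.3 and 46.0 in replicate 3. Acsl, an acyl-CoA synthetase, had 3 regions between 55.1 and 84.1 in replicate 2 and between 55.1 and 63.2 in replicate 3. Lpin, the phosphatidate phosphatase lipin, had 2 regions with thresholded signals of 121.8 and 113.2.

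Ecdysone and nuclear receptor genes were hosts in 7 of 27 cases (25.9%), which was 33.3% of the 21 in the upper tercile. EcR, the ecdysone receptor, led with 304.2 in replicate 2 and 217.9 in replicate 3, for a region whose nearest start was that of a transfer RNA gene. The next were br, Kr-h1 and Eip75B, early genes of the hormone response, with thresholded signals of 165.5, 159.0 and 154.2. The br region also lay in an intron of Mur2B, whose start was the nearest, 766 bp away. In replicate 3 the br region ranked 4700 and the Eip75B region 3763, so neither was top-ranked in both replicates. The Kr-h1 region was top-ranked in both. Stress and metabolic transcription factors were hosts in 6 of 29 cases (20.7%), led by CrebB with 184.6, cnc, the fly Nrf2, with 176.1, the immune factor Dif with 135.6 and CrebA with 118.5. Growth factor and stress signalling genes were hosts in 6 of 47 cases (12.8%), led by Raf with 348.4 and sty, the Sprouty inhibitor, with 247.5, then the BMP receptor tkv with 146.9 and the EGF ligand spi with 144.7.

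Developmental patterning genes were at the other end, with no host among 41 eligible genes (interval up to 8.57%) and none among the 31 in the upper tercile (up to 11.0%). Neuronal genes had 3 hosts of 36 (8.33%), elav with 185.5, dlg1 with 163.8 and Syn with 123.4, although 35 of the 36 were in the upper tercile. Photoreceptor genes had 1 of 28, the norpA region above, gut genes 1 of 16, GATAd with 183.8, and germ line genes 1 of 22, Sxl with 259.4. Muscle genes had 3 of 29, led by Msp300 with 294.6, then Tm1 with 120.1 and Zasp52 with 116.5. Glial genes had 2 of 14, Ndae1 with 175.1 and Gs2 with 149.2. Heat shock and chaperone genes had 2 of 16, Hsp83 with 145.9 and Hsp60A with 124.1. The Hsp83 region had 117.1 in replicate 2 but only 28.1 in replicate 3, where it ranked 8430, so it was not top-ranked in both. Ribosomal protein genes had 0 of 25, and these genes have a median of only 114 eligible bases. Differences between lists were not tested, and sima stands in both the insulin and the stress list.

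**Figure D3:**
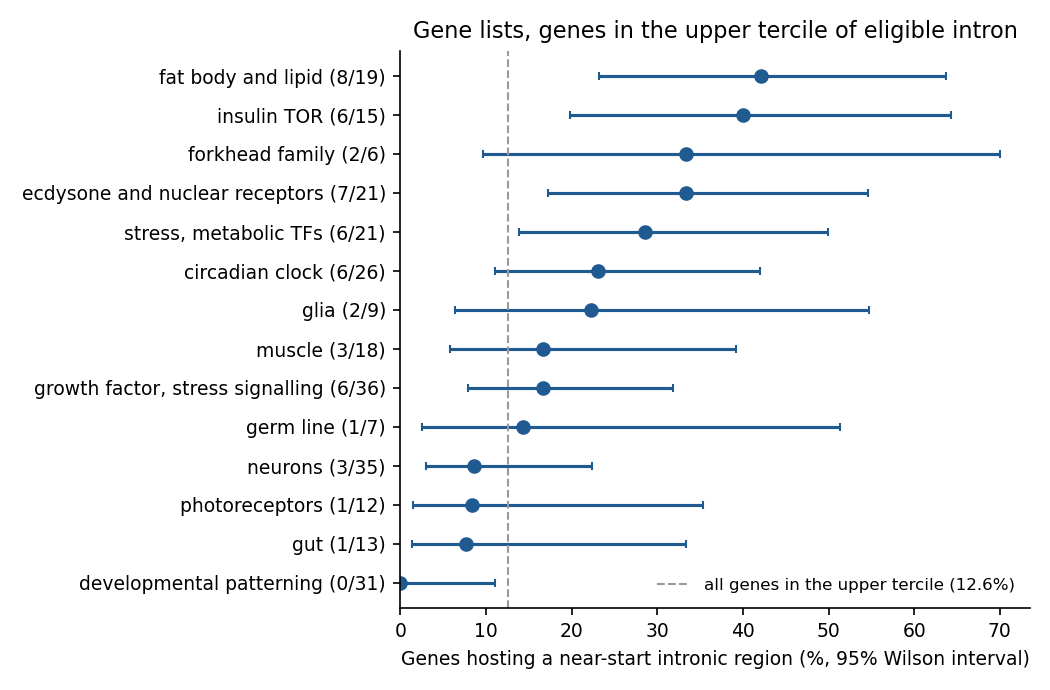
Percent of genes hosting a near-start intronic region (x axis, points with 95% Wilson intervals) for each gene list with at least 5 genes in the upper tercile of eligible intron, with hosts and genes in brackets. The dashed line is the 12.6% of all genes in that tercile, and fat body and lipid genes are at the top with 8 of 19 and developmental patterning genes at the bottom with 0 of 31.

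Forkhead words were commoner at the summits than in the flanks. The heptamer TGTTTAC occurred in the summit window of 46 of 536 regions (8.58%, interval 6.50 to 11.3%), against 12 (2.24%) in flanking windows of the same size, whose centre lay 500 bp from the summit on the side away from the nearest start (difference 6.34 points, 3.71 to 8.98, two-sided exact McNemar test, Benjamini-Hochberg adjusted over 18 motifs, p = 3.05e-05). The form TATTTAC occurred in 53 (9.89%), against 13 (2.43%) beside the summits (adjusted exact p = 2.91e-06). The shorter core TGTTTA, part of the first heptamer, occurred in 21.6%, against 11.6% (adjusted exact p = 4.77e-05). These 3 were the only ones of the 18 motifs (16.7%) with an adjusted p under 0.05. Each heptamer occurred in 6.02% of all 3707 summit windows. The rule kept the summits out of exons, but the flanking windows, here and below, were not held to introns. Some could lie in exons or outside the host gene, and the part of this in the differences was not tested.

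TGTTTAC and TGTTTA were also read backwards as a control for base composition, and TATTTAC had no such control. CATTTGT occurred in 4.66% at summits, against 3.92% beside them (adjusted exact p = 1.00), and ATTTGT in 18.5%, against 13.1% (difference 5.41 points, interval 1.00 to 9.82, adjusted exact p = 0.0927). The mean GC content was 38.9% at the summits, against 39.5% beside them (difference -0.56 points, interval -1.75 to 0.63). Against the window on the side towards the start it was 2.31 points lower (difference -2.31, interval -3.42 to -1.19), and for regions with signal above the median of the thresholded set the difference from the outer window was -2.53 points (-4.36 to -0.70). The part of base composition in the word shares was not tested beyond the reversed words. Among the motifs that did not pass, TTCNNNGAA, the palindrome bound by STAT, occurred in 4.10%, against 1.87% (adjusted exact p = 0.154), and the clock E-box CACGTG in 0.746%, against 2.05% (adjusted exact p = 0.355). The words GAGAG, bound by the GAGA factor, and AGATAAG, bound by GATA factors, occurred in 15.5%, against 14.2%, and in 1.87%, against 2.05%. The other words searched were TGANTCA for AP-1, TGACGT for CREB proteins, CAGGTA for Zelda, CCGGAAG for Ets factors, TATAAAA for the TATA box, TCAGT for the initiator, and the repeat CACACA, which had the lowest adjusted exact p among them (0.734).

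Either heptamer was present at 94 summits (17.5%, interval 14.6 to 21.0%), and 5 of these held both. The share was 9.13% at promoter summits, 8.40 points lower (interval of the difference 5.20 to 12.0). It was 21.9% at deep intronic summits, with a difference of -4.39 points (-10.6 to 1.36). The core TGTTTA alone was at 21.6% of near-start intronic summits, against 28.1% of deep intronic ones (difference -6.43 points, -13.05 to -0.135). In bins of 50 bp, the heptamers peaked in the bins on either side of the summit, at 9.89% and 10.1%, against 5.02% and 4.83% at promoters. The next bins outward held 4.48% and 5.22%. A pair of words typical of housekeeping promoters in flies were rare. TATCGATA, the DNA replication-related element, was in 0.187% of near-start intronic windows, against 5.33% at promoters (difference -5.14 points, -6.08 to -3.97), and GGTCACAC, a core of promoter motif 1, was in 0.373%, against 2.66%.

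**Figure D4:**
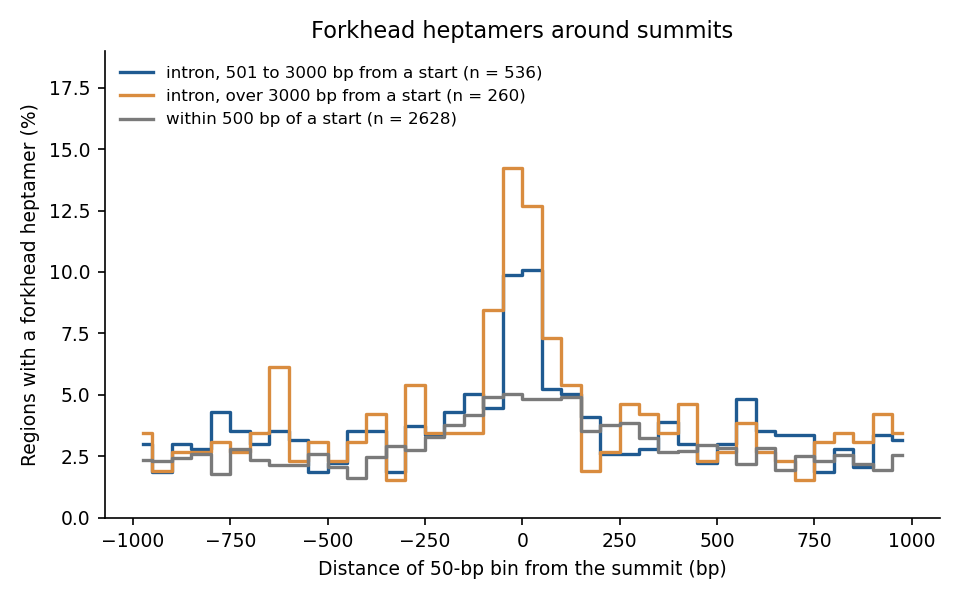
Percent of regions with either forkhead heptamer in each 50-bp bin (y axis) by distance of the bin from the summit in bp, for near-start intronic (blue), deep intronic (orange) and promoter regions (grey). The near-start intronic line peaks at 9.89% and 10.1% in the central bins, below deep intronic and above promoter regions.

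The heptamers were commoner at higher signal. They were present in 24.2% (interval 18.5 to 31.0%) of the upper tercile by signal, 16.8% (12.0 to 22.9%) of the middle tercile and 11.7% (7.80 to 17.3%) of the lower tercile, with 6.18%, 3.91% and 3.35% beside the summits. The 4 strongest regions of all, shown above, had none. By position, they were present at 37 of 224 regions up to 1000 bp from the start, 41 of 205 up to 2000 bp and 16 of 107 up to 3000 bp, with overlapping intervals. The share was 16.6% in first introns (13.4 to 20.3%) and 22.2% in later introns only (14.9 to 31.8%). It was 17.8% where the host had a promoter region and 17.1% where it had none. By gene list, the counts can be read against the 17.5% over all 536 regions, and no list was tested. A heptamer was present at 3 of the 12 regions of insulin and TOR genes, 2 in Lk6 and 1 in InR, and at 2 of the 7 of forkhead genes, 1 in CHES-1-like and 1 in jumu. It was present at 2 of the 12 of fat body and lipid genes, in FASN1 and in an intron shared by kermit and Lpin, and at none of the 9 of clock genes. Among the other lists with at least 4 regions, it was present at 2 of 9 in growth factor and stress signalling, 1 of 9 in ecdysone and nuclear receptors, 1 of 4 in muscle and 0 of 7 in stress and metabolic transcription factors.

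A test of all 2080 words of 6 bases, each counted with its reverse complement, called 5 (0.240%), all more frequent at the summits. CAAACA occurred in 19.2% of summit windows, against 9.14% beside them, and TAAACA, the reverse complement of TGTTTA, in 21.6%, against 11.6% (adjusted exact p = 0.00827 for both). TGTAAA occurred in 17.4%, against 8.21% (adjusted exact p = 0.00961), GTAAAC in 11.6%, against 4.66% (adjusted exact p = 0.0196), and GTACAC in 7.65%, against 2.24% (adjusted exact p = 0.0237). TAAACA and GTAAAC are the 2 stretches of 6 bases in GTAAACA, the reverse complement of the first heptamer. At deep intronic summits the same 5 words, in this order, occurred in 21.2%, 28.1%, 19.2%, 16.9% and 8.08% of windows, each above the share at near-start intronic summits. At promoter summits they occurred in 11.5%, 15.5%, 12.3%, 7.84% and 3.73%. The number called was 3 without replicate 3 and 1 without replicate 2, TAAACA, and of the 3, CAAACA was among the 5. It was 0 for regions over 1000 bp from the start, 0 for regions with signal above the median of the thresholded set and 16 in windows reaching 100 bp from the summit, with 100, 99 and 189 words at an unadjusted exact McNemar p under 0.05. An unadjusted p under 0.05 was reached by 154 words, of which 86 were more frequent at the summits.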

How the data were processed

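Regions came from the lists that the authors deposited for the dm6 build. Per the deposited file descriptions, each replicate list was called from 1 replicate with a shared control, the pooled list from both replicates, and the thresholded set from these lists by irreproducible discovery rate (IDR). No aligner, caller or version is named there. The signal is the authors' height of a region, and its scaling is not stated. The deposited -log10 q values were not used for ranking. The deposited summit offset, a position given as a plain number of bases, placed each region. The lists on the older build were not used here. Of the thresholded set, all 3707 regions matched the 3707 strongest regions of the pooled list, and 3 had repeated coordinates with another summit, 2 of them in near-start introns.

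The 536 regions were found with Ensembl release 115 without transposable elements, with all transcript starts as start sites, in Python 3.11.15 with numpy 2.4.6, scipy 1.17.1 and pandas 2.3.3. The regions, motifs and gene lists were chosen with earlier results of these data known. Overlap meant at least 1 bp. Intervals are 95% Wilson intervals for shares and Newcombe intervals for differences between classes. They cover counting over regions or genes, which are not biological replicates and not independent of their neighbours, and so do the exact McNemar tests on paired windows reaching 50 bp to each side of their centre, which describe these libraries. Gene names were the hosts of the 25 strongest regions top-ranked in both replicates, hosts with 3 or more regions, all hosts in the clock, forkhead and insulin lists, the 4 strongest hosts of the other lists, and the regions beside the distance limits. Of the names in the gene lists, 8 matched no gene. Alternatives changed the distance limits, start sites, summit, signal, overlap, windows and replicates.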

Additional observations from a re-analysis of the deposited data

How the results depend on the processing

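All results below concern the near-start intronic regions. The higher frequency of TGTTTAC and of TGTTTA at the summits than beside them kept its direction and its adjusted exact p under 0.05 in each of 12 alternatives. Among these, the middle of the region in place of the summit was hardly a change, since 478 of 536 summits lay within 1 bp of the middle. The share in a first intron stayed within its interval in each of 9. The number of regions was 312 at over 1000 up to 3000 bp from the start and 223 with signal above the median of the thresholded set. With that signal limit the median signal was 225.8, the share top-ranked in both replicates 97.8%, and the GC difference -2.53 points. A higher median and a higher top-ranked share come with the limit itself, since the replicate lists were also ranked by signal. The share top-ranked in both was 89.4% with the highest 5000 regions of each replicate. The nearest start was the host's own in 91.3% with starts of protein-coding genes only. The share of hosts with a promoter region was 79.6% with a promoter distance of 1000 bp. At that distance a near-start intronic region can itself count as the promoter region of its host. Of the 536, 224 lay at most 1000 bp from a start. The rise is thus partly set by the definition, and no matching share was computed for other genes. The GC difference was -2.31 points against the window towards the start.

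The number of 6-base words called moved most. It was 0 at over 1000 up to 3000 bp, where 100 words had an unadjusted exact McNemar p under 0.05, and 0 with signal above the median, where 99 had; both used fewer regions. It was 3 with an upper distance limit of 2000 bp, 9 with one of 5000 bp, 10 against the window towards the start, 3 within 25 bp of the summit and 16 within 100 bp. Without 1 replicate, it was 1 to 3. Of the 5 words, TAAACA was the 1 called without replicate 2, and CAAACA alone was kept without replicate 3. The causes of these changes, the number of regions among them, were not tested. The median signal was not recomputed for single replicates, whose lists have other scales.

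No paired analysis was possible because the 2 replicates form 1 group and no groups were compared. The depth is unknown, so how many weaker regions these libraries missed cannot be given.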
